A study of Mus musculus with 4 samples.

Results

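The lysosome and cathepsin genes are 44 genes for the digestive enzymes of the lysosome, the proteins of its membrane, parts of its proton pump and a pair of transcription factors of the lysosomal program. They were chosen by symbol from the 55367 gene rows of each count table, and all 44 were found. The rule used no measured value, but the choice was made with earlier results of these data known. By role they fall into 11 proteases, 9 glycan-degrading hydrolases, 8 lipid hydrolases with their helpers and progranulin, 10 membrane proteins, 4 proton pump components and 2 transcription factors.

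RNA was measured in 4 mouse libraries made from B16-F10 melanomas, tumors grown in mice from a melanoma line, in a series on the chromatin organizer SATB1 and tumor-infiltrating lymphocytes. Per the labels, cells positive for the leukocyte marker CD45.2 and for CD8 had been sorted from dissociated tumors, and polyadenylated RNA was sequenced. The WT label was on 2 of the libraries and the KO label on the other 2. The study describes mice with floxed Satb1 and Cre under Thpok control, for deletion after commitment to the CD4 lineage. It also names E8I-cre, for mature CD8+ thymocytes, as a useful driver. Which driver, if any, the KO label stands for was not stated, nor were strain, age, sex or treatment given per library. Nothing in the labels said that libraries came from separate animals, so the p-values below measure only the spread between these libraries.

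The lysosome is the acidic compartment in which cells digest material taken up from outside or delivered by autophagy. Proteases, glycosidases and lipid hydrolases work at the low pH that a proton pump, the V-ATPase, maintains, and heavily glycosylated membrane proteins such as LAMP1 and LAMP2 line the inner face. Macrophages, which take up dead cells and debris, are rich in lysosomes, and the cathepsins S and L also trim the invariant chain during antigen presentation. TFEB and TFE3 are basic helix-loop-helix factors known to switch on many lysosomal genes through a short promoter element with the core CACGTG.

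The gene counts of the libraries lay between 4017875 and 5382915, the deepest 1.34 times the shallowest, and no libraries agreed within sampling noise. Satb1 itself was not lower under the KO label, with 7 and 5 counts under the WT label against 131 and 55 under the KO label (log2 fold change 3.36 ± 0.79 SE, adjusted p = 0.115, edgeR quasi-likelihood test). All 10 T cell marker genes were also higher under the KO label, with log2 fold changes from 2.70 to 4.89. The Satb1 counts therefore cannot check the labels, and a direction below refers to the libraries as labeled. Xist and Y-linked transcripts separated the groups as well, so that sex and group cannot be told apart. The markers went against a CD8+ sort: 10 T cell genes took at most 0.165% of the gene counts of any library, against 2.32% to 3.86% for 13 macrophage or monocyte genes. In bulk RNA, fewer cells of a type and less RNA per cell cannot be told apart.

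The 44 genes together took 4.79% and 4.46% of the gene counts of WT 1 and WT 2, and 2.31% and 4.62% of those of KO 1 and KO 2. Taken in turn, the exact Clopper-Pearson 95% intervals were 4.77% to 4.81%, 4.44% to 4.48%, 2.29% to 2.32% and 4.599% to 4.634%; they reflect counting alone, because reads of the same molecule could not be recognized. WT 1, WT 2 and KO 2 thus lay close together, and KO 1 lay well below them. The group means were 4.63% ± 0.237 for WT and 3.46% ± 1.63 for KO as labeled (SD, n = 2 each), and KO 2 lay between the WT libraries. KO 1 had the lowest share in each role. Listed as WT 1, WT 2, KO 1, KO 2 here and wherever 4 values follow each other, the proteases took 2.47%, 2.28%, 1.19% and 2.40% of the gene counts, and the proton pump components 0.104%, 0.0941%, 0.0564% and 0.120%.

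**Figure D1:**
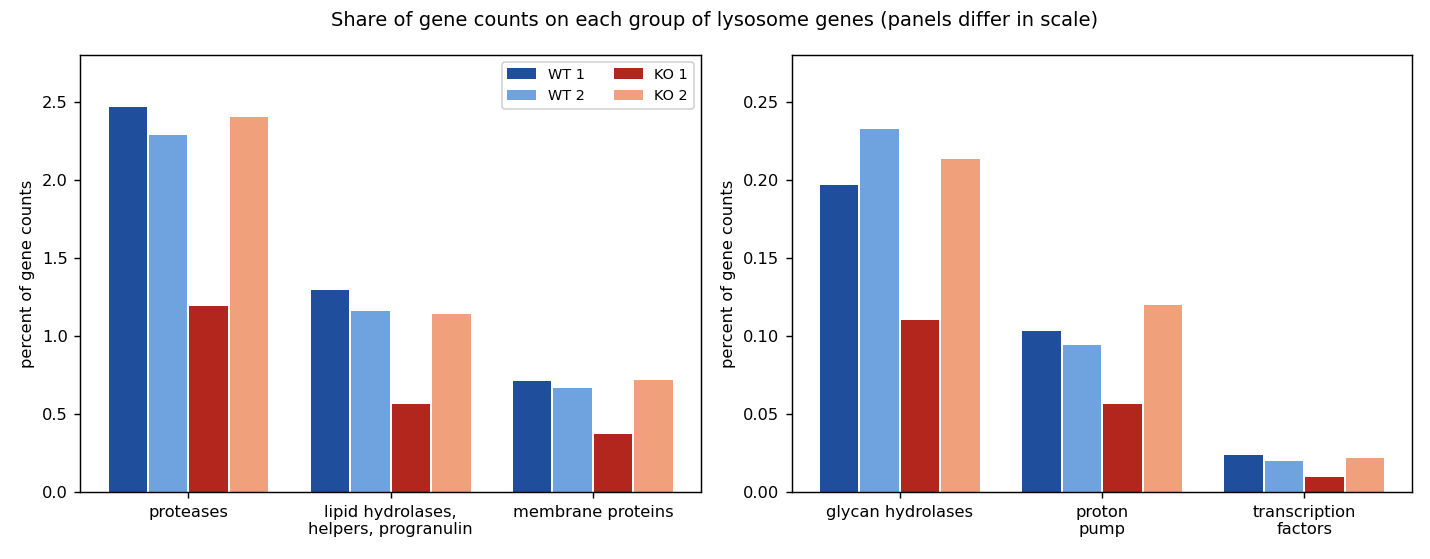
Share of the gene counts of each library taken by the members of each role, in percent; bars are single libraries, and the panels have different scales. In all 6 roles the bar of KO 1 is the lowest, and KO 2 stands near the bars of WT 1 and WT 2.

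No member passed the threshold between the groups. All 44 passed the filter on low counts and were tested among 11837 genes by the edgeR quasi-likelihood test with Benjamini-Hochberg adjustment, and their adjusted p-values lay between 0.260 and 0.985. Over all genes tested, 0.574% were past an adjusted p of 0.05, 0.549% being higher under the KO label and 0.0253% lower. At an unadjusted p under 0.05, 3 of 44 members (6.82%) were lower, namely Ctsk, Npc1 and Npc2, and 0 were higher; over all genes 4.23% were lower and 9.44% higher. DESeq2 called 0 members as well. The standard errors of the log2 fold changes ran from 0.41 to 0.92 with a median of 0.54.

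The direction of the differences was nonetheless uneven. On the log2 scale with TMM (trimmed mean of M-values) normalization, 40 of 44 members (90.9%) had a negative KO minus WT difference, against 47.4% of all genes tested, and the median was -0.65 against 0.05. For 21 members (47.7%) both KO libraries lay below both WT libraries in normalized CPM, that is counts scaled to a common library total, against 22.6% of all genes, and for 0 members both lay above, against 25.3%. Scaling by library totals alone moved the median of all genes by 0.33 and left 36 members negative, with a median of -0.31 beside 0.38 for all genes, and 12 members then lay lower without overlap and 1, Lamp2, higher, against 12.6% and 35.9% of all genes. The signs of Lipa, Asah1, Smpd1 and Lamp1 changed with the scaling.

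The direction rested largely on KO 1. Without KO 1, the median of the members was -0.22 and 29 of 44 were negative, with 0 past the threshold, where 0.195% of all genes were called lower. Without KO 2, the median was -1.33 with 43 of 44 negative, and 17 members (38.6%) were past the threshold and lower, against 4.08% of the 12852 genes then tested; the lone KO library was there assumed to vary like the WT group. These 17 were Ctsa, Ctsb, Ctsd, Ctsz, Lgmn, Hexa, Galns, Man2b1, Naglu, Lipa, Grn, Cd68, Mcoln1, Atp6v0d2, Atp6ap1, Tfeb and Tfe3, which include proteases, glycosidases, lipid-handling proteins, membrane proteins, pump components and both transcription factors. Leaving out each library in turn kept the sign of 30 members and changed that of 14.

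**Figure D2:**
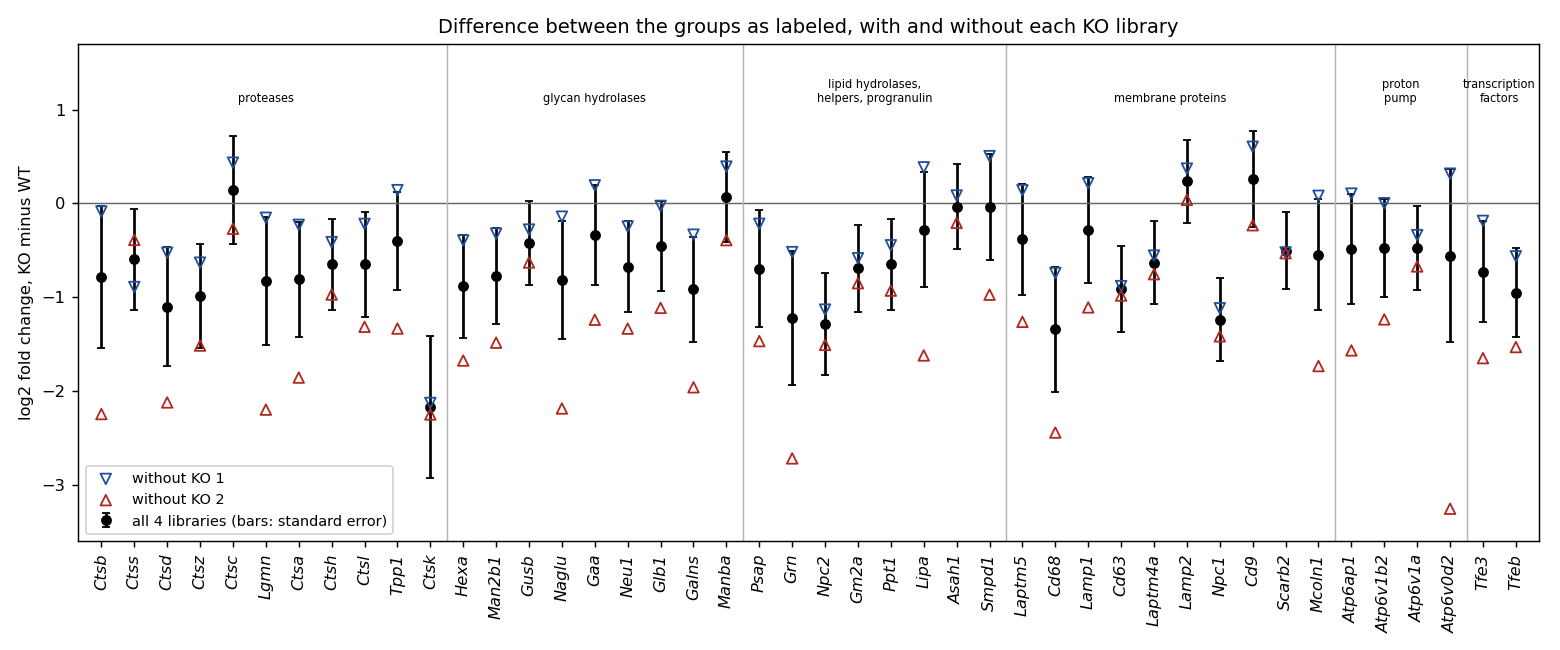
Difference between the groups as labeled for each of the 44 members, as the log2 fold change of KO minus WT with TMM normalization; filled circles with bars are the fit to all 4 libraries with its standard error, and open triangles are the fits without KO 1 or without KO 2. Most triangles without KO 1 lie near 0 and most without KO 2 lie below -1, while Ctsk, Npc1, Npc2, Cd63, Gm2a, Laptm4a and Scarb2 keep similar negative values in both.

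Among the proteases, cathepsin S (Ctss), a cysteine protease of antigen-presenting cells, had the highest level per length. In CPM per kilobase of exon it stood at 2399 and 2662 in the WT libraries, 2623 in KO 1 and 1645 in KO 2. KO 2 was the low library for Ctss, which set it apart from most of its family: it was 1 of only 2 members, with Scarb2, whose normalized level was higher in KO 1 than in KO 2. In CPM, the levels were 3258, 3615, 3562 and 2234, with a log2 fold change of -0.59 ± 0.54 (SE) and an adjusted p of 0.661.

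Cathepsin Z (Ctsz), a carboxypeptidase, ranked next among the proteases per kilobase, at 1758, 1525, 786 and 1288. Both KO libraries lay below both WT libraries on either scaling, but the difference of -0.99 ± 0.55 in log2 had an adjusted p of 0.458. Cathepsin B (Ctsb), an abundant cysteine protease, had 9441 and 7347 CPM in the WT libraries, 2430.1 in KO 1 and 9641 in KO 2. KO 2 was thus the highest of the 4 libraries and KO 1 the lowest, 3.97 times apart, and the group means of 8394 ± 1481 and 6035 ± 5099 CPM (SD, n = 2) overlapped.

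Cathepsin D (Ctsd), the main aspartic protease of the lysosome, had 3003 and 2493 CPM in the WT libraries against 865 and 2323 in the KO libraries. Legumain (Lgmn), an asparaginyl endopeptidase that processes other cathepsins, had 2273, 1963, 632 and 2316 CPM, so that KO 2 exceeded both WT libraries and KO 1 was 3.67 times below it. Cathepsin A (Ctsa), a carboxypeptidase that also shields beta-galactosidase and neuraminidase, had 1534, 1600.3, 588 and 1616 CPM. KO 1 was the lowest library for all 3, as for Ctsb. In CPM, KO 2 lay below both WT libraries for Ctsd and above both for Lgmn and Ctsa; in normalized CPM it was below both for Ctsa as well. A part of the exon bases of Ctsa (17.4%), Ctsb (12.8%), Ctsd (34.4%), Ctsl (26.8%), Hexa (12.8%) and Cd9 (10.7%) is shared with other annotated genes, so their counts are less certain.

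Cathepsin C (Ctsc), a dipeptidyl peptidase that activates granule serine proteases, showed another order. It had 974 CPM in WT 1 against 2233 in WT 2, 1764 in KO 1 and 2554 in KO 2, and WT 1 was the low library. It was 1 of the 4 members with a positive difference (log2 fold change 0.14 ± 0.57 SE, adjusted p = 0.935).

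Cathepsin K (Ctsk), a collagen-degrading cysteine protease best known from osteoclasts, had the largest difference of all members, and WT 1 set it. The counts were 378, 72, 74 and 86, or 94.1, 16.9, 16.5 and 16.0 CPM. WT 1 thus held 5.57 times the level of WT 2, and the other 3 libraries lay within 16.0 to 16.9 CPM. The log2 fold change of -2.17 ± 0.75 (SE) had an unadjusted p of 0.0174 and an adjusted p of 0.260, and it became -0.35 without WT 1. Ctsk passed the threshold without WT 2 and when every gene with a count was tested (adjusted p = 0.0167 and 0.00599).

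The remaining proteases, cathepsin H (Ctsh), cathepsin L (Ctsl) and tripeptidyl peptidase 1 (Tpp1), had log2 fold changes of -0.65, -0.65 and -0.40. Ctsh had 867, 927, 622 and 813 CPM, with both KO libraries below both WT libraries on either scaling (adjusted p = 0.579). Tpp1 and Ctsl each had their lowest level in KO 1, at 67.4 and 249.8 CPM, and the groups overlapped.

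**Figure D3:**
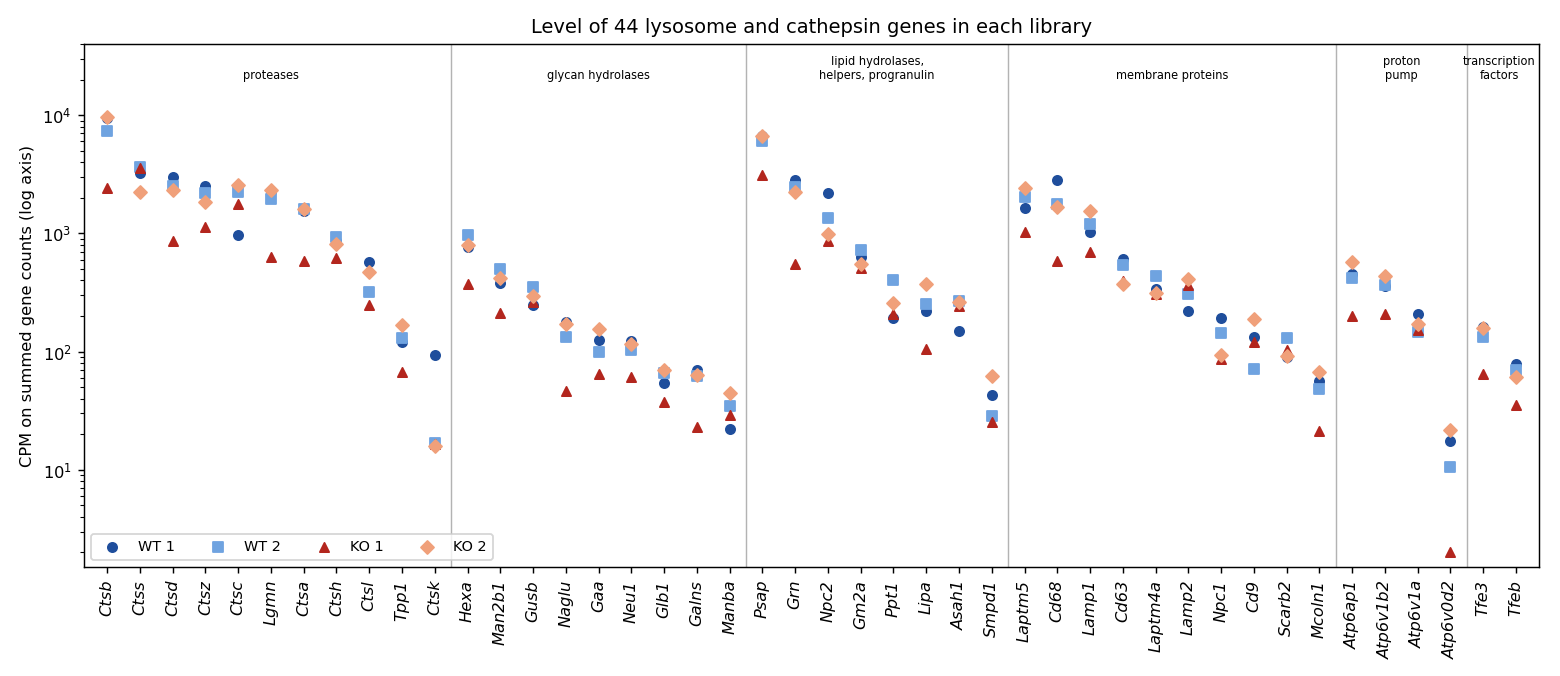
Level of each member in each library in CPM on summed gene counts, on a log axis and grouped by role; each symbol is a single library. The red triangles of KO 1 lie below the other symbols for most genes, while Ctsk stands out by WT 1 (94.1 CPM) and Atp6v0d2 by KO 1 (2.01 CPM).

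The glycan-degrading hydrolases were led per kilobase by Hexa, the alpha subunit of beta-hexosaminidase, which cleaves the GM2 ganglioside, with 388, 487, 185 and 399.7 CPM per kilobase. KO 2 lay within the range of the WT libraries and KO 1 below it, and the log2 fold change was -0.88 ± 0.55 (SE, adjusted p = 0.503). Gusb, the beta-glucuronidase, ranked next at 54.7, 77.7, 57.6 and 65.2 CPM per kilobase. It was the flattest gene of the role, with KO 1 and KO 2 1.13-fold apart.

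Naglu, which removes N-acetylglucosamine from heparan sulfate, had the widest gap between the KO libraries in this role. It had 176, 133, 46.7 and 171 CPM, a 3.67-fold gap. Galns, a sulfatase of keratan sulfate, followed at 69.2, 62.0, 23.0 and 63.2 CPM, where WT 1, WT 2 and KO 2 nearly coincided.

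The alpha-mannosidase Man2b1, the neuraminidase Neu1, the acid alpha-glucosidase Gaa, which breaks down glycogen, and the beta-galactosidase Glb1 had KO 2 to KO 1 ratios from 1.89 to 2.40. KO 1 was the lowest library for each of them. Manba, the beta-mannosidase, had the lowest mean level per kilobase of all members, and a difference near 0 (log2 fold change 0.07 ± 0.48 SE). The 9 genes of the role had adjusted p-values from 0.495 to 0.967, 8 of 9 differences were negative and 5 of 9 genes lay lower without overlap in normalized CPM, against 22.6% of all genes, but 0 of 9 on library totals.

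Among the lipid hydrolases and their helpers, prosaposin (Psap), the precursor of the saposins that present sphingolipids to their hydrolases, had 6643, 6094, 3144 and 6647 CPM. WT 1 and KO 2 were nearly equal and KO 1 was 2.11 times below KO 2. Per kilobase Psap was first or second of the 44 members in every library.

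Progranulin (Grn), a secreted and lysosomal protein cleaved into granulins, had 2840.1 and 2486 CPM in the WT libraries, 553 in KO 1 and 2259 in KO 2. The 4.08-fold gap between the KO libraries was the widest among members with over 100 CPM in every library. Both KO libraries lay below both WT libraries, and the log2 fold change of -1.22 ± 0.71 (SE) had an adjusted p of 0.475. It was -0.52 without KO 1 and -2.72 without KO 2 (adjusted p = 0.00520), the latter with a lone KO library.

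Npc2, the soluble protein that hands cholesterol to NPC1, behaved otherwise. It had 2189.7 and 1347 CPM in the WT libraries against 859.9 and 991 in the KO libraries, so the KO libraries were close to each other and both below the WT libraries. The log2 fold change was -1.29 ± 0.55 (SE, unadjusted p = 0.0414, adjusted p = 0.344), and it stayed between -1.71 and -0.82 whichever library was left out.

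Its membrane partner Npc1, which moves cholesterol out of the lysosome, gave the same order. It had 192 and 143 CPM in the WT libraries against 86.2 and 94.2 in the KO libraries. The group means were 168 ± 34.1 and 90.2 ± 5.67 CPM (SD, n = 2), with a log2 fold change of -1.24 ± 0.44 (SE, unadjusted p = 0.0201, adjusted p = 0.273). Without each library in turn the value lay between -1.56 and -0.95. For the pair of cholesterol transporters, therefore, neither KO library decided the difference, and neither gene passed the threshold.

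The GM2 activator Gm2a was also flat between the KO libraries, at 636 and 727 CPM in WT and 512 and 547 in KO. The groups did not overlap, but the log2 fold change of -0.69 ± 0.46 (SE) had an adjusted p of 0.533. The acid ceramidase Asah1 and the acid sphingomyelinase Smpd1 had differences near 0 (-0.03 and -0.04), and the thioesterase Ppt1 had its highest level in WT 2, at 399 CPM.

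The acid lipase Lipa, which hydrolyzes cholesteryl esters, had 222, 255, 105 and 374 CPM. The KO libraries thus lay on both sides of the WT libraries. The group means of 238 ± 23.4 and 239.6 ± 191 CPM (SD, n = 2) were nearly equal although the KO libraries were 3.57-fold apart.

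Among the membrane proteins, Cd68, a lysosomal glycoprotein used as a macrophage marker, led the role per kilobase with 2229, 1419, 464 and 1338. In CPM it had 2802, 1784, 583 and 1682, with a log2 fold change of -1.34 ± 0.67 (SE, adjusted p = 0.412) that was -0.74 without KO 1 and -2.44 without KO 2. Laptm5, a lysosomal protein of blood cells, ranked next at 436, 534, 273 and 642 CPM per kilobase, and KO 2 was its highest library.

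LAMP1 and LAMP2 are the major glycoproteins of the lysosomal membrane. Lamp1 had 1017, 1199, 696 and 1548 CPM, low in KO 1 and highest in KO 2 (log2 fold change -0.28 ± 0.56 SE). Lamp2, on the X chromosome, had 222, 304, 364 and 407 CPM, so that both KO libraries exceeded both WT libraries in CPM. After TMM normalization the groups overlapped (log2 fold change 0.23 ± 0.44 SE, adjusted p = 0.849).

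The tetraspanin Cd9 had the largest positive difference. It had 132 and 70.9 CPM in WT and 119.7 and 189.9 in KO, and WT 1 lay between the KO libraries. The log2 fold change of 0.26 ± 0.51 (SE) had an adjusted p of 0.853 and was -0.23 without KO 2.

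The tetraspanin Cd63 had 606 and 535 CPM in the WT libraries against 395 and 376 in the KO libraries. KO 2 stood at 0.953 times KO 1, and both were below the WT libraries, with a log2 fold change of -0.91 ± 0.46 (SE, adjusted p = 0.420). Laptm4a had 336, 434, 308 and 315 CPM, also with both KO libraries below the WT libraries. Scarb2, the receptor that carries beta-glucocerebrosidase to the lysosome, had 89.4, 131, 103 and 91.8 CPM, and with Ctss it was the member not lower in KO 1 than in KO 2 in normalized CPM.

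Mcoln1, the calcium channel TRPML1, was low per kilobase (7.45, 6.37, 2.84 and 8.88 CPM per kilobase). KO 1 was 3.13 times below KO 2, which was the highest of the 4 libraries.

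Of the proton pump components, the accessory subunit Atp6ap1 had the highest level per kilobase, at 149.9, 139, 66.5 and 188, and the B2 subunit Atp6v1b2 the next, at 67.4, 68.4, 39.2 and 82.2. In both, KO 2 was the highest library and KO 1 the lowest. The catalytic A subunit Atp6v1a varied least, with 207, 146, 152 and 171 CPM. All 4 genes of the role overlapped between the groups, with adjusted p-values from 0.674 to 0.823.

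Atp6v0d2, a membrane-sector subunit abundant in osteoclasts and some macrophages, had the widest gap between the KO libraries of all members. It had 71, 45, 9 and 116 counts, a 10.7-fold gap in CPM. The log2 fold change was -0.56 ± 0.92 (SE), the least certain of the 44, and it was 0.32 without KO 1 and -3.25 without KO 2.

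The transcription factors were among the lowest members per kilobase. Tfe3 had 17.5, 14.2, 6.92 and 17.0 CPM per kilobase and Tfeb 14.0, 12.4, 6.22 and 10.8, both lowest in KO 1. In log2 fold change, Tfeb was at -0.95 ± 0.47 (SE, adjusted p = 0.414) with no overlap between the groups, and Tfe3 at -0.73 ± 0.54 (adjusted p = 0.572) with overlap. The related factor Mitf, which is no member, had its highest level in KO 1, at 29.1, 23.7, 104 and 21.4 CPM. MITF is also the lineage factor of melanocytes, and the summed share of the melanoma markers was highest in KO 1 as well, at 0.221%.

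Promoters of the members were searched for the element that these factors are known to bind, in the RefSeq promoter sequences of GRCm38.p6, which run from 250 bases before to 50 bases after each start. Of the 44 members, 37 had a promoter in that table. CACGTG, which reads the same on both strands, was in 10 of the 37 (27.0%), against 8.09% of 27025 genes. The longer TCACGTG, on either strand and overlapping the former, was in 9 (24.3%) against 4.29%, and the full palindrome TCACGTGA in 4 (10.8%) against 1.13%. The 9 genes were Ctsa, Ctsd, Lgmn, Gaa, Glb1, Naglu, Lamp1, Mcoln1 and Atp6v1a. A match is a description of the sequence and not evidence of binding.

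The sites below are shown to give the element and its surroundings in genes of 4 roles; the element itself was fixed by the search. Each is a stretch of 30 bases on the strand of the gene, 5′ to 3′, with the element in capitals.
Ctsa: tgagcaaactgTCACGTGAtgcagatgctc
Ctsd: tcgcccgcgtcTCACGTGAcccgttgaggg
Mcoln1: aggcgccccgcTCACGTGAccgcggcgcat
Atp6v1a: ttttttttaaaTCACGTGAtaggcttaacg
Lgmn: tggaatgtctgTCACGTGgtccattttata
Naglu: caaccttcaggTCACGTGgcccgaggtcgg
Lamp1: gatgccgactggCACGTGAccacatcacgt

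In GRCm38.p6 the stretches lie at chr2:164833749-164833778 (Ctsa, + strand), chr7:142387908-142387937 (Ctsd, - strand), chr8:3500462-3500491 (Mcoln1, + strand), chr16:44139373-44139402 (Atp6v1a, - strand), chr12:102439124-102439153 (Lgmn, - strand), chr11:101070009-101070038 (Naglu, + strand) and chr8:13159121-13159150 (Lamp1, + strand). Counted from the RefSeq start as base 1, with no base 0, the element began at -13 in Ctsa, -99 in Ctsd, -46 in Mcoln1, -132 in Atp6v1a, -50 in Lgmn, -74 in Naglu and -28 in Lamp1. Lamp1 held 4 matches in its promoter, and Ctsa, Ctsd and Mcoln1 2 each.

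The members' differences are given with and without the element. The median log2 fold change of KO minus WT was -0.54 over the 9 with TCACGTG and -0.65 over the 28 without. Between the KO libraries, the median of KO 1 minus KO 2 was -1.57 (range -2.02 to -0.30) with the element and -0.90 (range -2.17 to 0.53) without. The ranges overlapped, with Atp6v1a at -0.30 despite the element and Grn at -2.17 without it, and no test was made.

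The spread within each group was larger for the KO libraries than for the WT libraries. The members' median log2 difference was -1.10 for KO 1 minus KO 2, against 0.04 for all genes, and 0.34 for WT 1 minus WT 2, against -0.01. KO 1 was lower than KO 2 for 42 of 44 members (95.5%; all genes 48.4%) and was the lowest of the 4 libraries for 38 (86.4%; all genes 31.1%), in normalized CPM. On library totals it was the lowest for 32 (72.7%; all genes 21.6%). KO 2, on library totals, lay above both WT libraries for 19 members (43.2%), between them for 12 (27.3%) and below both for 13 (29.5%), near the 51.7%, 21.4% and 26.9% of all genes. The median absolute log2 difference of the members was 0.29 between WT 2 and KO 2 (all genes 0.54) and 0.39 between WT 1 and WT 2 (all genes 0.43). Between KO 1 and KO 2 it was 1.10 (all genes 0.68).

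**Figure D4:**
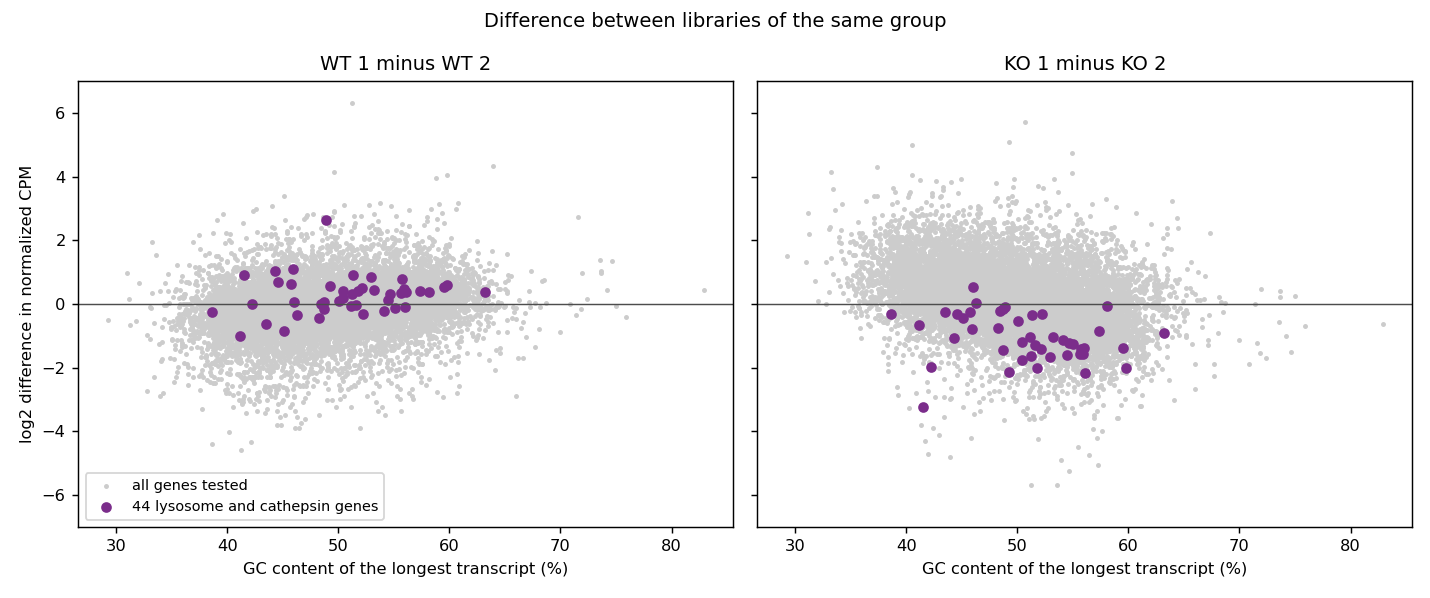
Log2 difference in normalized CPM between the libraries of the same group, against the GC content of the longest annotated transcript in percent; purple points are the 44 members and gray points all genes tested. The members lie around 0 between WT 1 and WT 2, with Ctsk highest, and 42 of 44 lie below 0 between KO 1 and KO 2, where gray points also slope downward with GC content.

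GC content moved with the difference between the KO libraries. Across 11671 genes with a transcript, Pearson's r of GC content with KO 1 minus KO 2 was -0.358, and across the 44 members it was -0.237; genes are not independent replicates, and all points share the same pair of libraries. After the median of genes of like GC content was subtracted, the members' median was -0.94 in place of -1.10, and the same number, 42, were below 0. With the GC trend of each library removed before the test between groups, the members' median was -0.60, 42 of 44 were negative and 0 passed the threshold.

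Some markers of cell types were, like the members, low in KO 1, and others were high there. Of the 13 macrophage or monocyte genes, 10 had a negative KO minus WT difference with a median of -0.73, 0 were past the threshold of edgeR's test (0 higher and 4 lower at an unadjusted p under 0.05), and their summed share was 2.70% and 3.86% in the WT libraries and 2.32% and 2.73% in the KO libraries. Lyz2, the lysozyme of myeloid cells, held 27.0%, 35.0%, 65.2% and 40.1% of the counts on the list, with 7309.8, 13499, 15135 and 10941 CPM. Without Lyz2 the list took 1.97%, 2.51%, 0.808% and 1.64% of the gene counts, so that the summed share of the other 12 genes, like that of the members, was lowest in KO 1. Mrc1 did not follow, with 107, 220, 227 and 233 CPM. In CPM, KO 1 was the lowest library for 9 of the 13 genes on the whole list (all genes 21.6%). C1qa, a complement component of resident macrophages, had 3100.2, 4319, 719 and 1977 CPM, also lowest in KO 1. Ccr2, the chemokine receptor of incoming monocytes, had 76.2, 196, 579 and 226 CPM, highest in KO 1. Ly6c2, another gene of inflammatory monocytes, went the other way, with 972, 531, 486 and 360.4 CPM (log2 fold change -1.20 ± 0.53 SE, adjusted p = 0.362). Fibroblast genes took up to 0.000772% of the gene counts in the WT libraries, 0.147% in KO 1 and 0.0181% in KO 2, with 3 of the 4 tested of 6 genes past the threshold and Dcn at 0 counts in both WT libraries. The 6 melanoma genes took up to 0.0230%, 0.221% and 0.123%, all 6 being higher in KO with 1 past the threshold, and the T cell genes up to 0.0104%, 0.165% and 0.115%, with 8 of 10 past it. Their part in the result was not tested. The 5 B cell genes took 0.000469% to 0.00427% of the gene counts, with Pax5 at 0 in every library and Cd79b at 61, 182, 12 and 73 counts. The 5 neutrophil genes took 0.00554% to 0.0127%, with Mpo at 0 and Csf3r at 501, 459, 242 and 507 counts. The 8 dendritic cell genes took 0.00627% and 0.0108% in the WT libraries, 0.0275% in KO 1 and 0.0168% in KO 2, with 0 of 5 tested past the threshold of edgeR's test and 3 of 5 higher at an unadjusted p under 0.05. The 4 endothelial genes took 0.00219% to 0.00334%.

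The level of the members relative to the macrophage or monocyte list depended on Lyz2. Set per 1000 counts on the whole list, the log2 ratio of the KO to the WT mean was above 0 for 22 members and below 0 for 22, with a median of 0.0018, and 37 of 44 overlapped. KO 1 was below KO 2 for 32 of 44 members (72.7%; all genes 34.01%) and the lowest of the 4 libraries for 24 (54.5%; all genes 9.93%), as in Ctsb with 349, 191, 105 and 353 and Grn with 105, 64.5, 23.8 and 82.8. Over all genes, 50.6% were higher in KO without overlap on this scale and 3.36% lower. Lamp2 had 8.21 and 7.88 in WT against 15.7 and 14.9 in KO, the clearest of 6 that were higher without overlap, the others being Ctsc, Gusb, Manba, Asah1 and Cd9. Npc1, with 7.09 and 3.72 against 3.71 and 3.45, was the only one lower without overlap. With Lyz2 left out of the list, an alternative added after seeing the data, the order of the libraries was another. The members together then had 2.43, 1.78, 2.85 and 2.82 counts per count on the list, against 1.77, 1.16, 0.993 and 1.69 with the whole list. KO 1 was below KO 2 for 21 of 44 members (47.7%; all genes 12.1%) and the lowest library for 3 (6.82%; all genes 1.77%). The log2 ratio was above 0 for 40 with a median of 0.55 (all genes 1.45), and 23 were higher and 0 lower without overlap (52.3%; all genes 67.8% higher and 0.667% lower). Npc1 was thus lower without overlap only with the whole list. No test was made on either ratio.

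A second list of 65 lysosomal genes outside the 44 also had mostly negative differences. Of 63 tested, 0 passed the threshold of edgeR's test, 44 (69.8%) were negative beside 47.4% of all genes, and the median was -0.49. At an unadjusted p under 0.05, 2 were higher and 10 (15.9%) lower, beside 9.44% and 4.23% of all genes. In all, 31 (49.2%) lay lower without overlap in normalized CPM against 8 higher, beside 22.6% and 25.3% of all genes. On library totals 23 lay lower and 15 higher without overlap, beside 12.6% and 35.9%. The other 13 pump subunits had a median of -0.84, and those lower at an unadjusted p under 0.05 were Atp6v0b, Atp6v0d1 and Atp6v0e. The 21 other hydrolases tested had a median of -0.60 and ranged from Sgsh, the heparan N-sulfatase (log2 fold change -1.72 ± 0.48 SE, adjusted p = 0.175), to Arsb, the arylsulfatase B (1.35 ± 0.54, adjusted p = 0.313). Sgsh had 30.6, 36.8, 11.6 and 13.9 CPM, with the KO libraries close together.

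The cystatins, inhibitors of cathepsins, did not move as a group. Cst3 and Cstb had log2 fold changes of -0.89 and -1.40, with 1714 and 974 CPM in WT against 694 and 622 in KO for Cstb. Cst7, or cystatin F, known from cytotoxic lymphocytes and myeloid cells, had 64 and 47 counts in WT against 371 and 200 in KO, with a log2 fold change of 1.77 ± 0.54 (SE, adjusted p = 0.205). Genes that sort enzymes to the lysosome, such as the mannose 6-phosphate receptor M6pr and the phosphotransferase Gnptab, had a median of 0.09 over 5 genes, with 184, 241, 257 and 308 CPM for M6pr. The 10 genes of the MiT/TFE factors and of the mTORC1 docking complex had a median of -0.48. Without KO 2, and so with a lone KO library, 17 genes of the second list were past the threshold, 15 lower and 2 higher, beside 4.08% and 5.64% of all genes in that fit.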

How the data were processed

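RNA of 2 libraries labeled WT and 2 labeled KO, grouped by their titles, was measured as read counts. The authors deposited whole-number counts per gene, not normalized. The submitters' processing notes name HISAT2 2.1.0, HTSeq 0.11.0 and mm10; the annotation, strand setting and trimming were not given in the sources used here. Rows that name no gene, 71.2% to 79.5% of each table, were left out.

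Counts were fitted in R 4.3.3 with edgeR 4.0.16 (filterByExpr with 10 counts and 15 in total, TMM factors, quasi-likelihood test with group as the only term, prior count 0.125, Benjamini-Hochberg adjustment over all genes tested, threshold 0.05, two-sided). The SE is the size of the log2 fold change divided by the square root of F. CPM is on summed gene rows, normalized CPM on TMM-scaled totals, with 0.5 added before logs of within-group differences of all genes. A count of 3 corresponded to 0.557 to 0.747 CPM. Exon lengths, GC content and overlaps came from GENCODE M21 on GRCm38/mm10, in which all 44 symbols matched, and promoters from RefSeq; reads of overlapping genes cannot be told apart without a stated strand setting. The script was tested on simulated data.

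The members and lists were chosen with earlier results of these data known. Per library values were fixed for the 3 largest differences in each direction, with at least 20 CPM, and the 2 most abundant members per kilobase of each role; other genes with values were chosen after these were seen. Alternatives were other scalings (RLE, upper quartile, library totals), other filters (every gene with a count; 50 counts in 2 libraries), a prior count of 2, DESeq2 1.42.0, a replicate block and each library left out; a crossed block and removal of GC or transcript length trends (lowess, span 0.3) were added after seeing the data. The deviations of libraries with the same number correlated at -0.180, so the numbers were not taken as pairs. Plots were drawn with matplotlib 3.10.9.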

Additional observations from a re-analysis of the deposited data

How the results depend on the processing

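No member was past the threshold with all 4 libraries, except that Ctsk was called lower (1 member) when every gene with a count was tested. Leaving out 1 library gave 0 to 17 members called lower, 1 to 15 with a positive difference and medians from -1.33 to -0.22; it gave 99 to 725 genes higher and 7 to 524 lower, and 0 to 2 of the second list higher and 0 to 15 lower. Positive members numbered 8 on library totals and 2 with the GC trend removed, in place of 4. Of all genes, 65 were higher and 3 lower; the numbers were 133 higher on library totals, 505 and 78 (with 1 of the second list, Ctse) with every gene with a count, 114 higher with at least 50 counts in 2 libraries, 311 and 63 with DESeq2, 171 and 12 with the GC trend removed and 99 higher with the length trend removed. With the replicate block, 201 genes were higher and 14 lower and 0 members were called, with a median of -0.70. Crossing the numbers in that block gave 535 higher and 112 lower, with 1 higher and 1 lower on the second list and 0 members. Of the member values under all alternatives, 609 kept both their sign and their side of the threshold. Another 19 kept their sign and newly passed the threshold, and 32 changed sign. With 0 members called at first, no call could be lost or reversed. The cause of these shifts was not tested. The standard errors of 0.41 to 0.92 on the log2 scale bound what could be told about single members.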
